A study of Mus musculus with 16 samples.

Results

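The extracellular matrix of the heart is cut by secreted and membrane-bound metalloproteases and protected by their inhibitors. The 10 genes described here belong to this system. They are the matrix metalloproteases Mmp2, Mmp3 and Mmp14, the ADAMTS proteases Adamts1, Adamts4 and Adamts9, and the tissue inhibitors of metalloproteases Timp1, Timp2, Timp3 and Timp4, followed across the groups of the study. They were chosen by gene symbol, 10 of 55278 symbols in the tables, and each had 1 line in every library. All 10 passed the filter on low counts and stand among the 18713 genes tested.

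The libraries came from hearts of C57BL/6J mice, all male and between 8 and 12 weeks old, with 4 libraries in each of 4 groups. Ppara-flox mice carry a Ppara gene that Cre recombinase can cut, and PPARα-deficient mice lack this nuclear receptor, a regulator of fatty acid use, in cardiomyocytes. Mice of each genotype received an intraperitoneal injection of lipopolysaccharide (LPS, a bacterial cell wall component that triggers systemic inflammation) at 5 mg/kg, or of phosphate-buffered saline (PBS) alone, and hearts were taken 12 hours later. The design therefore asks how the heart responds to LPS in each genotype, how the genotypes differ under each treatment, and whether the response differs between them. The labels name neither the Cre line nor a group with Cre and no floxed allele, and do not say whether a library holds 1 heart or several. Since the replicates are only numbered, the p-values measure the spread between these libraries, which may be in part technical.

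Library totals ran from 65569134 to 75436023 estimated counts. Multiples of 4 were over-represented among low values, and the depth in read pairs may be nearer 16392284 to 18859006. Although the extraction text speaks of islets, the islet genes Ins1, Ins2, Gcg and Iapp were at 0 in all 16 libraries, and the summed level of 8 cardiomyocyte markers was at least 27177 CPM, the counts of a gene per 1e6 counts of its library. Ppara was lower in PPARα-deficient than in Ppara-flox hearts under PBS (log2 difference -1.79 ± 0.28 SE, adjusted p = 0.00287). Under LPS the Ppara difference was -0.50 ± 0.27 (adjusted p = 0.651), and LPS changed Ppara itself by -2.15 ± 0.28 in Ppara-flox hearts (adjusted p = 1.25e-05), so in the LPS groups this gene gave no check of the genotype labels. Esr1, the estrogen receptor α gene, separated the labelled genotypes under both treatments, with 4 to 36 counts in all 8 Ppara-flox libraries, 212576 to 229094 in PPARα-deficient PBS libraries and 2146 to 10888 in PPARα-deficient LPS libraries. It differed by 8.54 ± 0.69 between the genotypes under LPS (adjusted p = 1.96e-06) and changed by -5.20 ± 0.54 with LPS in PPARα-deficient hearts (adjusted p = 1.34e-06). What these Esr1 counts stand for was not tested, and in the genotype comparisons the loss of Ppara and whatever else differs between the lines cannot be told apart. The column headers number the PBS libraries 957 to 1075 and the LPS libraries 1739 to 1769, so that LPS and numbering order cannot be told apart.

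Matrix metalloproteases (MMPs) are zinc enzymes made as inactive proenzymes. MMP14, anchored in the cell membrane, activates proMMP2 on the cell surface in a complex that contains TIMP2, and MMP3 cleaves proteoglycans and activates other proMMPs. ADAMTS1, ADAMTS4 and ADAMTS9 are secreted proteases that cleave large proteoglycans, among them versican, which is present in the heart. TIMPs bind the active site of MMPs, TIMP3 also inhibits ADAMTS4 and is held in the matrix, and TIMP4 is known for its high level in the heart.

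With LPS, 7 of the 10 genes rose in Ppara-flox hearts, led by the inhibitor Timp1, which was 21.2-fold higher, and followed by Adamts4 (9.56-fold), Mmp3 (9.38-fold) and Adamts1 (6.83-fold). Timp2 and Mmp2 fell, and Timp4 did not pass the test. In PPARα-deficient hearts the same test called 7 genes higher and 1, Timp2, lower. No difference between the genotypes in any of the 10 genes passed the test, either under PBS, under LPS or in the size of the LPS response. A gene is called at a Benjamini-Hochberg adjusted p under 0.05 over all 18713 genes in edgeR's quasi-likelihood test, and levels are CPM unless stated otherwise. Of all genes tested, 20.2% were called higher and 19.1% lower with LPS in Ppara-flox hearts. In PPARα-deficient hearts the shares were 19.4% higher and 18.3% lower. The median log2 fold change of the 10 genes was 1.49 in Ppara-flox and 1.35 in PPARα-deficient hearts, against a median of 0.01 over all genes in each. Because the 10 genes were chosen with earlier results of these data known, this contrast describes the set and is no test of it.

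**Figure D1:**
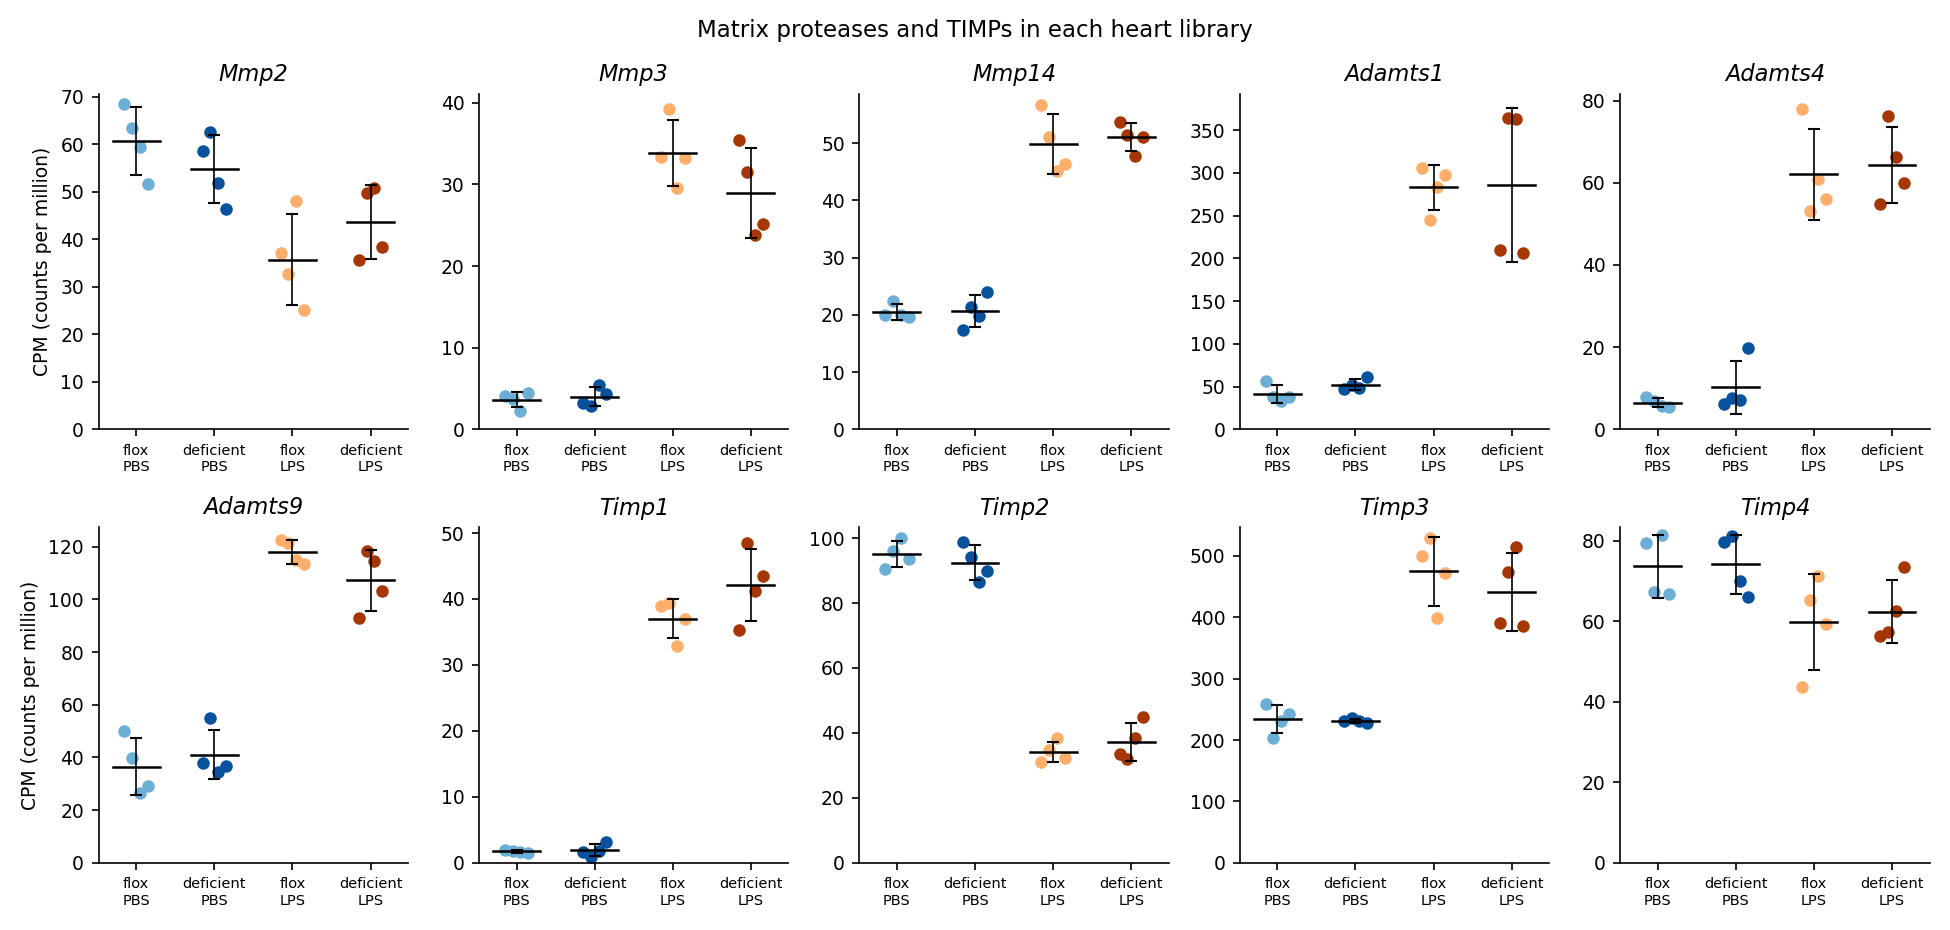
Level of each gene in CPM (vertical axes, each starting at 0) in the 4 groups, with 1 point per library, a line at the mean and bars of 1 SD (n = 4). In Timp1, Mmp3, Mmp14, Timp3 and the 3 Adamts genes every LPS library lies above every PBS library of its genotype, in Timp2 every LPS library lies below, and the points of the genotypes overlap in every panel. The shares of all genes that separate or overlap in these ways are not given here.

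The sequences upstream of the transcription start are shown for the 3 genes with the largest LPS response among those with an entry in the RefSeq promoter table for GRCm38.p6, which held 8 of the 10 genes and 32851 promoters in all. Mmp2 and Adamts4 are named only. Each sequence covers the 250 bases before the start, 5′ to 3′ on the gene's strand, with matches to the motifs searched in capitals. They lie at chr9:7445572-7445821 on the plus strand for Mmp3, chrX:20869916-20870165 on the plus strand for Timp1 and chr16:85803114-85803363 on the minus strand for Adamts1.
Mmp3: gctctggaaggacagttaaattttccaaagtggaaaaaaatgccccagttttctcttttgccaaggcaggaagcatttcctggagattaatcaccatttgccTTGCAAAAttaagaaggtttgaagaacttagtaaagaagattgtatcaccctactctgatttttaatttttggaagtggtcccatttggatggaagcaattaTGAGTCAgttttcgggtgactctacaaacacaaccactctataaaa
Timp1: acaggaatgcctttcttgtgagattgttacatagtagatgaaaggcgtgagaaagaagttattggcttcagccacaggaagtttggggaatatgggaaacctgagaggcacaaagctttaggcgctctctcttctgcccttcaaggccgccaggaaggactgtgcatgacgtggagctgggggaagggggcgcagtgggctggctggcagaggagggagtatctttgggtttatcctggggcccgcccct
Adamts1: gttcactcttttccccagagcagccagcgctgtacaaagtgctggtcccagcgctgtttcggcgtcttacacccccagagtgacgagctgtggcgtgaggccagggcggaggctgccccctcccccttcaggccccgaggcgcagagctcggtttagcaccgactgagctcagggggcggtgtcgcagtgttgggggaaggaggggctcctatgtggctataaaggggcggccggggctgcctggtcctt
Searched on both strands were the AP-1 motif TGANTCA, the cAMP response element TGACGTCA, the STAT motif TTCNNNGAA, the C/EBP motif TTGCNNAA and the NF-kB consensus. The capitals in the Mmp3 sequence are a C/EBP match at -148 to -141 and the AP-1 match TGAGTCA at -46 to -40, counted from the start. Timp1 and Adamts1 held no match in this window. Among the other 5 genes with an entry, Adamts9 held an NF-kB match at -15 to -6. Of all promoters of the same length, 6.75% held the AP-1 motif, 9.56% the C/EBP motif, 7.25% the NF-kB consensus, 7.02% the STAT motif and 1.55% the cAMP response element, and the last 2 were in none of the 8.

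Mmp2, a gelatinase made largely by fibroblasts, lies on chromosome 8 at 92827291 to 92853420 (plus strand, GRCm38). In Ppara-flox hearts its level was 68.5, 63.4, 59.4 and 51.7 CPM under PBS and 37.1, 32.6, 48.0 and 25.0 under LPS. The PPARα-deficient hearts held 58.5, 62.5, 51.8 and 46.4 under PBS and 35.6, 49.7, 50.8 and 38.4 under LPS. The LPS libraries of Ppara-flox hearts all lay below their PBS libraries, with replicate 4 the lowest, whereas in PPARα-deficient hearts the groups overlapped. Mmp2 fell in Ppara-flox hearts (log2 fold change -0.77 ± 0.17 SE, adjusted p = 0.00186). In PPARα-deficient hearts the difference was -0.33 ± 0.17 (adjusted p = 0.145). The difference between these responses was 0.44 ± 0.24 (95% interval -0.07 to 0.95, adjusted p = 0.919), so the responses were not shown to differ.

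Markers of several cell types were lower with LPS, as Mmp2 was. Of 10 fibroblast markers, 6 fell and 1, Dcn, rose with LPS in Ppara-flox hearts, and the counts were the same in PPARα-deficient hearts. Their summed level ran from 1794 to 2061 CPM under PBS and from 1104 to 1511 under LPS in Ppara-flox hearts, and from 1683 to 1925 and from 1276 to 1492 in PPARα-deficient hearts. All 8 cardiomyocyte markers fell in Ppara-flox hearts and 6 of 8 in PPARα-deficient hearts. Their sum was 54071 to 60642 CPM under PBS and 27177 to 32862 under LPS in Ppara-flox hearts, and 49915 to 56894 and 30569 to 35679 in PPARα-deficient hearts. Of 8 smooth muscle and pericyte markers, 6 fell in Ppara-flox and 5 in PPARα-deficient hearts, with a sum of 789 to 851 CPM under PBS and 416 to 478 under LPS in Ppara-flox hearts, and of 736 to 820 and 391 to 425 in PPARα-deficient hearts. Of 8 endothelial markers, 3 fell in each genotype. In bulk tissue, fewer cells of a type and less RNA per cell cannot be told apart, and the part of these marker lists in the Mmp2 result was not tested. Neutrophil markers moved the other way, with a summed level of 2.16 to 3.12 CPM under PBS and 18.6 to 42.04 under LPS in Ppara-flox hearts. In PPARα-deficient hearts that sum was 1.27 to 8.27 under PBS and 23.6 to 26.5 under LPS. Summed macrophage markers ran from 235 to 282 CPM under PBS and from 121 to 159 under LPS in Ppara-flox hearts, and from 261 to 312 and from 144 to 198 in PPARα-deficient hearts. Of these 8 markers, 4 fell, 1, Cd68, rose and 3 were not called in each genotype. The part of the neutrophil or macrophage list in the rises below was not tested.

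Mmp3, or stromelysin, on chromosome 9 at 7445822 to 7455975 (plus strand), was at 4.07, 3.67, 2.30 and 4.41 CPM under PBS and at 33.4, 39.3, 29.6 and 33.2 under LPS in Ppara-flox hearts. Levels in PPARα-deficient hearts were 3.19, 2.87, 5.41 and 4.37 under PBS and 35.5, 31.6, 23.8 and 25.1 under LPS. Every LPS library lay far above every PBS library in both genotypes. The log2 fold change was 3.23 ± 0.23 in Ppara-flox hearts (adjusted p = 1.94e-08) and 2.87 ± 0.22 in PPARα-deficient hearts (adjusted p = 5.85e-08).

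Mmp14, the membrane protease that activates proMMP2, lies on chromosome 14 at 54431612 to 54445364 (plus strand). Its level in Ppara-flox hearts was 19.9, 22.5, 19.9 and 19.7 CPM under PBS and 56.7, 51.0, 45.1 and 46.4 under LPS. PPARα-deficient hearts had 17.3, 21.4, 19.9 and 23.9 under PBS and 53.8, 51.5, 47.8 and 51.2 under LPS. All 8 LPS libraries stood above all 8 PBS libraries, while Mmp2, whose proenzyme it activates, fell in Ppara-flox hearts. Mmp14 was 2.43-fold higher with LPS in Ppara-flox hearts (log2 1.28 ± 0.10, adjusted p = 6.76e-08) and 2.48-fold higher in PPARα-deficient hearts (1.31 ± 0.10, adjusted p = 5.76e-08).

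Adamts1, a secreted protease that cleaves versican and aggrecan, lies on chromosome 16 at 85793827 to 85803113 (minus strand). In Ppara-flox hearts it was at 56.4, 37.5, 33.5 and 38.3 CPM under PBS and at 306, 245, 283 and 297 under LPS. The corresponding PPARα-deficient levels were 47.4, 51.8, 47.7 and 61.7 under PBS and 209.7, 364, 363 and 206 under LPS. The LPS libraries of PPARα-deficient hearts fell into 2 pairs, replicates 2 and 3 above and replicates 1 and 4 below every LPS library of Ppara-flox hearts, and all stood above every PBS library. Adamts1 rose by 2.77 ± 0.21 on the log2 scale in Ppara-flox hearts (adjusted p = 3.76e-08) and by 2.45 ± 0.20 in PPARα-deficient hearts (adjusted p = 1.27e-07).

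Adamts4, an aggrecanase that also cleaves versican, lies on chromosome 1 at 171250421 to 171260637 (plus strand). Its level was 7.97, 6.89, 5.58 and 5.52 CPM under PBS and 78.0, 53.1, 61.0 and 56.0 under LPS in Ppara-flox hearts. In PPARα-deficient hearts it was 6.27, 7.56, 7.14 and 19.7 under PBS and 54.9, 76.3, 66.3 and 60.0 under LPS. Replicate 4 of the PPARα-deficient PBS group stood alone among the PBS libraries, and even so lay below every LPS library. In that library the neutrophil markers summed to 8.27 CPM, against 1.27 to 3.12 in the other 7 PBS libraries. It also had the lowest sums of cardiomyocyte markers (49915 CPM) and fibroblast markers (1683 CPM) among the PBS libraries. Its share of counts from the mitochondrial genome, 29.8%, was the highest of all 16 libraries. The part of these differences in the Adamts4 value was not tested. The log2 fold change with LPS was 3.26 ± 0.30 in Ppara-flox hearts (adjusted p = 3.69e-07) and 2.66 ± 0.30 in PPARα-deficient hearts (adjusted p = 2.55e-06). Without the replicate 4 named above, the rise in PPARα-deficient hearts was 3.20 ± 0.18 (adjusted p = 5.13e-09, with a range of 8.01e-21 to 0.000246 over all alternatives).

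Adamts9, the third versican-cleaving protease of the set, lies on chromosome 6 at 92772699 to 92943492 (minus strand). In Ppara-flox hearts its level was 50.1, 39.9, 26.6 and 29.2 CPM under PBS and 123, 121, 115 and 113 under LPS. The PPARα-deficient hearts held 38.1, 54.8, 34.3 and 36.9 under PBS and 92.9, 119, 115 and 103 under LPS. LPS libraries lay above all PBS libraries in both genotypes. The rise was 1.70 ± 0.18 on the log2 scale in Ppara-flox hearts (adjusted p = 1.49e-06) and 1.39 ± 0.18 in PPARα-deficient hearts (adjusted p = 1.18e-05). Among the PBS libraries, the 4 with header numbers from 957 to 971 held 38.1 to 54.8 CPM and the 4 numbered 1069 to 1075 held 26.6 to 36.9. The other 9 genes overlapped between these series. The share of all genes that separate this way is not given here, so the split is not shown to be particular to Adamts9. With that split as a term, added after the data were seen, the Adamts9 rise was 1.73 ± 0.12 and 1.40 ± 0.12.

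**Figure D2:**
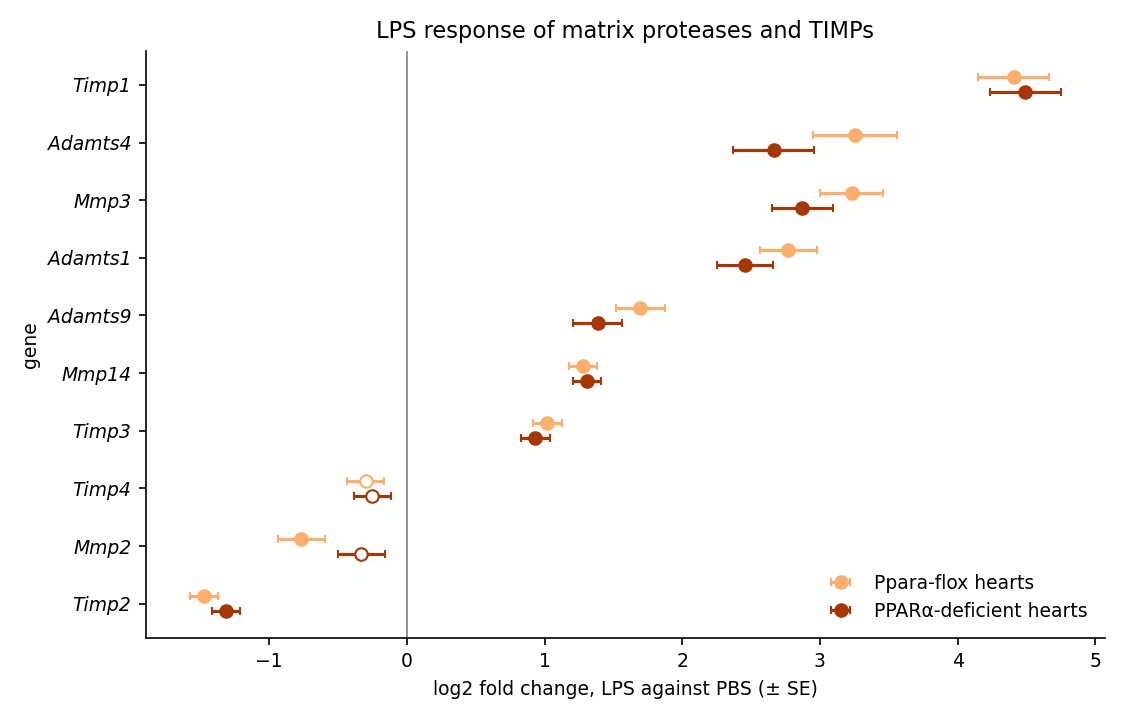
Log2 fold change of each gene with LPS against PBS (horizontal axis, bars of 1 SE) in Ppara-flox and PPARα-deficient hearts, from the fit over all 16 libraries. Filled points passed the test and open points did not: Timp1 stands at 4.41 and 4.49, Timp2 at -1.48 and -1.31, and Mmp2 is filled in Ppara-flox hearts only.

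Among the inhibitors, Timp1, the inducible TIMP, lies on chromosome X at 20870166 to 20874735 (plus strand), within Syn1 on the opposite strand and with no exon base shared. It was at 2.01, 1.81, 1.69 and 1.47 CPM under PBS and at 39.0, 39.3, 32.9 and 36.9 under LPS in Ppara-flox hearts. Levels in PPARα-deficient hearts were 1.66, 0.90, 1.85 and 3.07 under PBS and 35.3, 48.5, 41.2 and 43.4 under LPS. The lowest LPS library held more than the highest PBS library by a wide margin, and the highest PBS value was again replicate 4 of the PPARα-deficient hearts. Timp1 rose by 4.41 ± 0.26 on the log2 scale in Ppara-flox hearts (adjusted p = 3.42e-09) and by 4.49 ± 0.26, or 22.5-fold, in PPARα-deficient hearts (adjusted p = 2.84e-09).

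Timp2, which both inhibits MMP2 and takes part in its activation by MMP14, lies on chromosome 11 at 118301069 to 118355740 (minus strand). In Ppara-flox hearts its level was 90.6, 95.9, 99.96 and 93.5 CPM under PBS and 31.1, 34.8, 38.3 and 32.3 under LPS. PPARα-deficient hearts had 98.9, 94.2, 86.5 and 89.7 under PBS and 33.6, 32.0, 38.4 and 44.9 under LPS. PBS libraries were tightly grouped, and every LPS library lay below all of them. Timp2 was 2.78-fold lower with LPS in Ppara-flox hearts (log2 -1.48 ± 0.10, adjusted p = 1.61e-08) and 2.48-fold lower in PPARα-deficient hearts (-1.31 ± 0.10, adjusted p = 5.74e-08). The sums of fibroblast, cardiomyocyte, and smooth muscle and pericyte markers given for Mmp2 were lower with LPS too, and their part in the Timp2 result was not tested.

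Timp3, the matrix-bound inhibitor, lies on chromosome 10 at 86300372 to 86349506 (plus strand). It was at 258, 204, 232 and 243 CPM under PBS and at 500.0, 529, 398 and 472 under LPS in Ppara-flox hearts. The corresponding PPARα-deficient levels were 231, 235, 231 and 227 under PBS and 391, 474, 514 and 385 under LPS. Every LPS library lay above every PBS library. Timp3 rose 2.03-fold in Ppara-flox hearts (log2 1.02 ± 0.11, adjusted p = 1.27e-06) and 1.91-fold in PPARα-deficient hearts (0.93 ± 0.11, adjusted p = 3.36e-06). It lies within Syn3 on the opposite strand and shares 1733 exon bases (21.3%) with it. Syn3 held 12 to 141 counts per library. How reads in the shared bases were counted is not given, and the part of this overlap in the Timp3 level was not tested.

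Timp4, the fourth inhibitor, lies on chromosome 6 at 115241892 to 115252205 (minus strand). Its level in Ppara-flox hearts was 79.3, 67.2, 81.4 and 66.7 CPM under PBS and 43.6, 65.3, 71.1 and 59.4 under LPS. In PPARα-deficient hearts it was 79.6, 81.1, 70.1 and 65.9 under PBS and 56.4, 57.2, 62.5 and 73.4 under LPS. The groups overlapped in both genotypes. The log2 fold change was -0.30 ± 0.13 in Ppara-flox hearts (adjusted p = 0.0899) and -0.25 ± 0.13 in PPARα-deficient hearts (adjusted p = 0.161). Without replicate 3 of the LPS Ppara-flox group, which had the highest level there, Timp4 passed the test in Ppara-flox hearts (-0.41 ± 0.14, adjusted p = 0.0279), and it did so with upper-quartile scaling too (-0.36 ± 0.13, adjusted p = 0.0443). Over all alternatives its adjusted p in Ppara-flox hearts ran from 0.0279 to 0.280. Timp4 lies within Syn2 on the opposite strand, shares 90 exon bases (1.53%) with it, and Syn2 rose by 2.24 ± 0.34 with LPS in Ppara-flox hearts (adjusted p = 5.64e-05).

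Levels of different genes were compared per exon length, as CPM per kb of the union of annotated exons. Under PBS the order in Ppara-flox hearts was Timp3 (28.8 CPM per kb), Timp2 (24.4), Mmp2 (18.0), Timp4 (12.5), Adamts1 (7.81), Mmp14 (3.44), Adamts9 (2.42), Mmp3 (2.01), Timp1 (1.96) and Adamts4 (1.35). Libraries of Timp3 and Timp2 overlapped, as did those of each neighbouring pair from Mmp14 down to Adamts4. Under LPS the order was Timp3 (58.3 CPM per kb), Adamts1 (53.3), Timp1 (41.7), Mmp3 (18.8), Adamts4 (12.9), Mmp2 (10.6), Timp4 (10.2), Timp2 (8.76), Mmp14 (8.36) and Adamts9 (7.84). Here Timp3 and Adamts1 overlapped, Adamts1 and Timp1, Timp1 and Mmp3, and Mmp3 and Adamts4 stood apart, and every neighbouring pair from Adamts4 down to Adamts9 overlapped. By the union of exons, Timp1 thus moved from the ninth to the third place and Timp2 from the second to the eighth. In PPARα-deficient hearts the first 8 places under PBS and all places under LPS held the same genes. Adamts4 and Timp1 took the last places under PBS with the same mean, 2.11 CPM per kb, and overlapping libraries. That Adamts4 mean includes replicate 4 at 4.09 CPM per kb, against at most 1.57 in the other 3 libraries. These orders depend on the exon length used. Per longest transcript in Ppara-flox hearts under PBS, Timp3 (at least 43.2 CPM per kb) stood apart from Timp2 (at most 27.0). Under LPS Timp3 (at least 84.3) stood apart from Adamts1 (at most 62.6). Mmp14 (at least 13.9) and Adamts9 (at least 14.1) then lay above Timp4 (at most 12.9) and Timp2 (at most 10.3) in every library.

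The make-up of the TIMP transcripts changed accordingly. These are RNA levels, and neither protein nor protease activity is described here. Timp1 was 2.91% ± 0.37 (SD, n = 4) of the summed TIMP level per kb under PBS and 35.1% ± 0.98 under LPS in Ppara-flox hearts, and 3.18% ± 1.58 and 38.9% ± 2.82 in PPARα-deficient hearts. Timp2 went from 36.1% ± 2.53 to 7.42% ± 1.15 in Ppara-flox hearts and from 35.5% ± 0.97 to 7.90% ± 1.36 in PPARα-deficient hearts. Every LPS library had a higher Timp1 share and a lower Timp2 share than every PBS library. Timp3 stayed the most abundant TIMP transcript in the group means. Its share was 42.5% ± 2.66 under PBS and 48.9% ± 2.48 under LPS in Ppara-flox hearts. In PPARα-deficient hearts it was 42.5% ± 1.18 and 44.4% ± 3.82. In LPS replicate 4 of the PPARα-deficient hearts Timp1 (40.7%) stood above Timp3 (39.3%). Per longest transcript that library held 31.5% Timp1 and 52.2% Timp3, so this reversal rested on the exon length used. The Timp4 share was 18.5% ± 1.23 under PBS and 8.61% ± 2.07 under LPS in Ppara-flox hearts, although its own level did not pass the test. Summed over the 4 TIMPs, the level was 67.6 ± 3.41 CPM per kb under PBS and 118.9 ± 8.81 under LPS in Ppara-flox hearts, and 66.8 ± 2.08 and 121.7 ± 11.6 in PPARα-deficient hearts. The 6 proteases summed to 35.1 ± 4.79 CPM per kb under PBS and 111.8 ± 6.74 under LPS in Ppara-flox hearts, and to 36.6 ± 2.28 and 112.0 ± 20.8 in PPARα-deficient hearts. Of that protease sum, the 3 ADAMTS genes made up 32.8% ± 3.52 under PBS and 66.2% ± 3.09 under LPS in Ppara-flox hearts. In PPARα-deficient hearts they made up 39.9% ± 5.01 and 65.7% ± 5.53. Most of the ADAMTS level was Adamts1, which went from 7.81 to 53.3 CPM per kb in Ppara-flox hearts. Adamts4 went from 1.35 to 12.9 there and Adamts9 from 2.42 to 7.84. The shares depend on the exon length used: per longest transcript, Timp1 was 25.8% and Timp3 61.7% of the TIMP sum under LPS in Ppara-flox hearts.

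**Figure D3:**
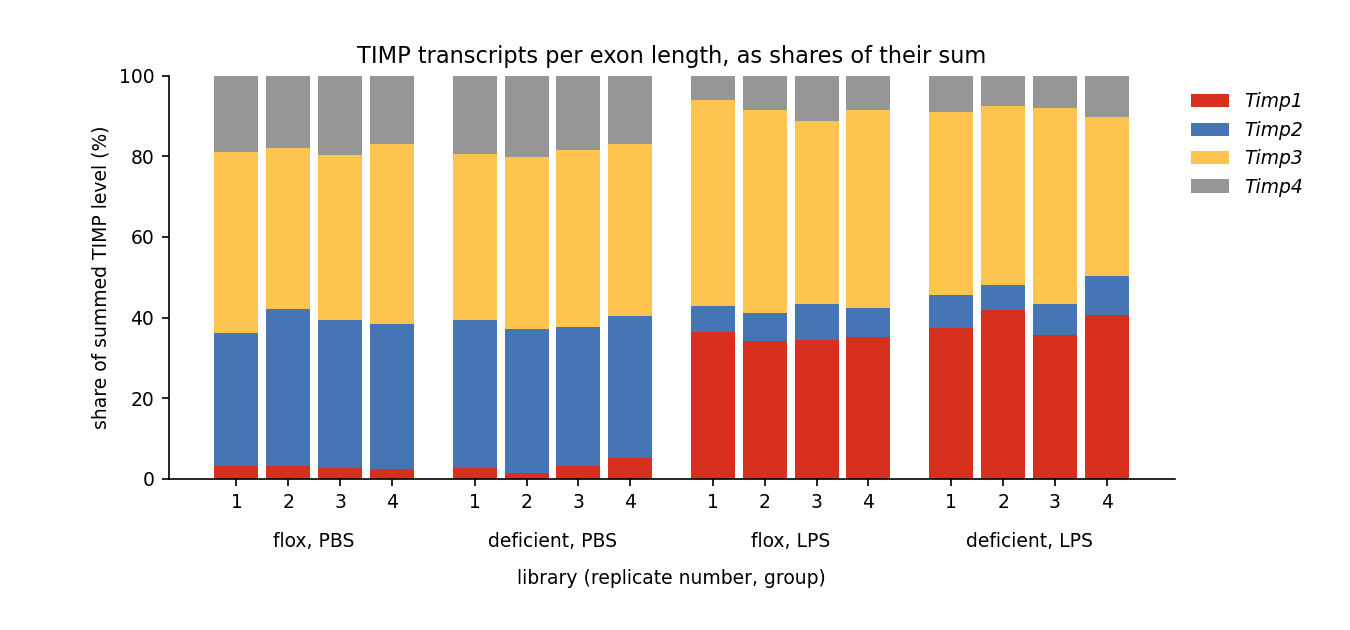
Share of each TIMP in the summed TIMP level per kb of exon (vertical axis, percent) in each of the 16 libraries, as stacked bars. The Timp1 share averages 2.91% and 3.18% in the PBS groups and 35.1% and 38.9% in the LPS groups, while the Timp2 share is smaller in every LPS library.

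Between the genotypes, 0 of the 10 genes were called under PBS, where 0.433% of all genes were called in either direction. Adamts4 alone had an unadjusted p under 0.05, with a difference of 0.65 (95% interval 0.04 to 1.25, adjusted p = 0.837). Without replicate 4 of the PPARα-deficient PBS group that difference was 0.11 ± 0.16 (adjusted p = 1.0, with a range of 0.538 to 1.0 over all alternatives). The other 9 differences under PBS ran from -0.15 ± 0.17 in Mmp2 to 0.33 ± 0.19 in Adamts1, the latter with an interval of -0.08 to 0.74. Intervals were narrowest for Timp2 (-0.25 to 0.17), Mmp14 (-0.20 to 0.22) and Timp3 (-0.24 to 0.20), and widest, beside Adamts4, for Timp1 (-0.42 to 0.62).

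Under LPS, again 0 of the 10 genes were called, against 1.23% of all genes, and none had an unadjusted p under 0.05. Mmp2 had the smallest p, with a difference of 0.29 ± 0.17 (interval -0.07 to 0.65, adjusted p = 0.704). For Timp1 the difference was 0.19 ± 0.22 (interval -0.28 to 0.65) and for Adamts1 it was 0.01 ± 0.19 (interval -0.40 to 0.42). Libraries of the genotypes overlapped in all 10 genes under each treatment, and the share of all genes with such overlap is not given here. For the difference in LPS response, 0 of the 10 genes and 0% of all genes were called, and none of the 10 had an unadjusted p under 0.05. Its point values ran from -0.59 ± 0.40 in Adamts4 (interval -1.43 to 0.25) to the 0.44 of Mmp2. The interval for Mmp3 was -0.99 to 0.27 and that for Mmp14 was -0.27 to 0.33, so the data limit a difference in response more closely for Mmp14 than for Mmp3 or Adamts4. DESeq2 and limma-voom also called 0 of the 10 genes in each of these 3 comparisons. DESeq2 gave 1 gene, Adamts4, an unadjusted p under 0.05 under PBS (0.65 ± 0.27, adjusted p = 0.538), and limma-voom gave none.

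**Figure D4:**
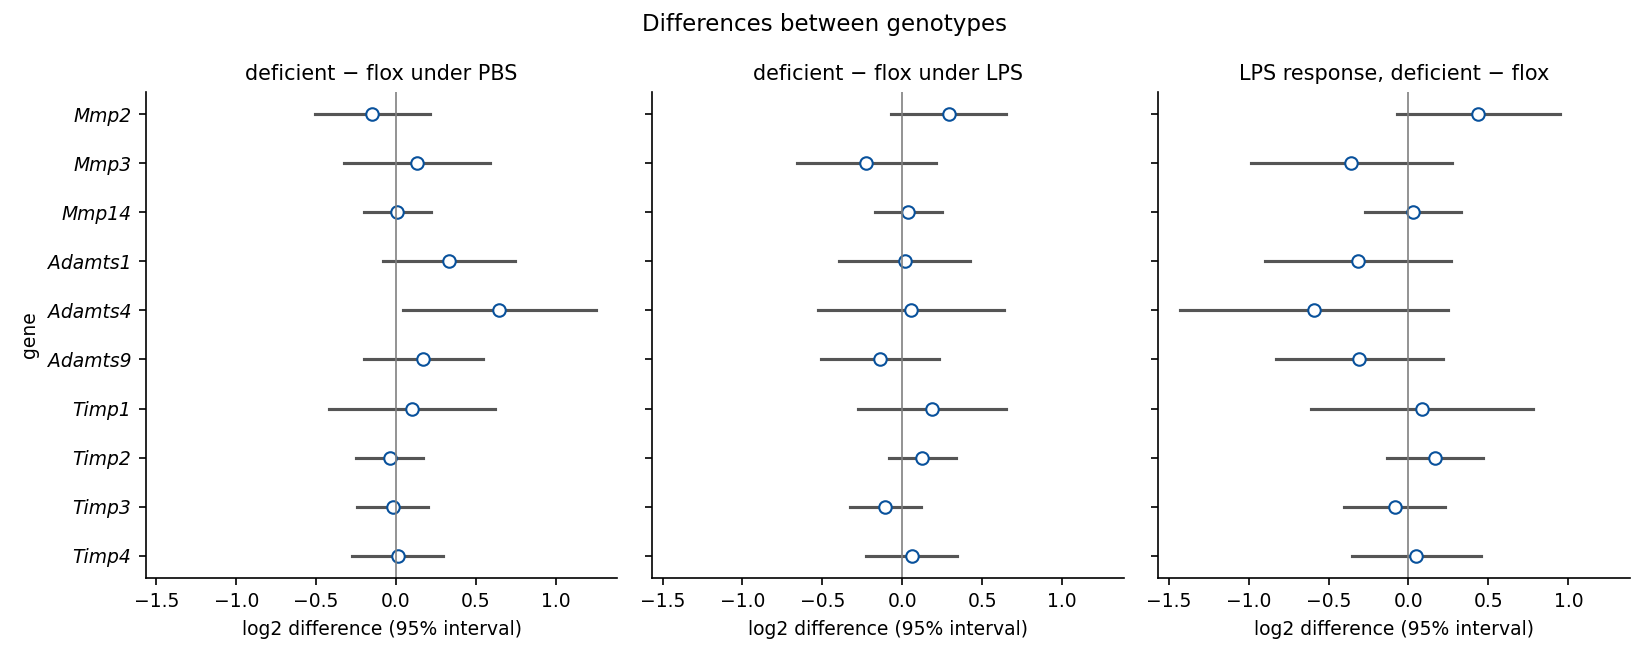
Log2 difference between PPARα-deficient and Ppara-flox hearts under PBS, under LPS, and in the LPS response (panels left to right), with 95% intervals. All points are open because none passed the test, and the interval of Adamts4 under PBS, 0.04 to 1.25, is the only one that leaves out 0.

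Genes of the wider protease system moved in both directions. Of 20 other MMP genes listed, 14 were tested, and in Ppara-flox hearts 5 rose and 3 fell, with a median log2 fold change of 1.14, or 0.99 when genes with a group near 0 are set at their bound. Mmp15, a membrane-type MMP like Mmp14, fell from 162 ± 24.5 to 26.6 ± 5.70 CPM (mean ± SD, n = 4), a log2 fold change of -2.60 ± 0.18 (adjusted p = 2.02e-08), the opposite direction to Mmp14. Mmp19 rose by 2.28 ± 0.16 (adjusted p = 2.04e-08), and Mmp28 changed by -1.85 ± 0.31 (adjusted p = 0.000165). Mmp24, another membrane-type MMP, was at most 0.0585 CPM in the PBS libraries and at 1.205 to 2.58 in the LPS libraries of Ppara-flox hearts. In PPARα-deficient hearts 6 of the 14 rose and 4 fell, with Mmp15 at -2.75 ± 0.18, Mmp19 at 2.25 ± 0.16 and Mmp28 at -2.24 ± 0.32.

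Among the other ADAMTS genes, falls outnumbered rises. Of 16 listed, 13 were tested, and 3 rose and 8 fell in Ppara-flox hearts (median -1.03), while 4 rose and 7 fell in PPARα-deficient hearts (median -1.03). Adamts5, an aggrecanase closely related to Adamts4, changed by -1.03 ± 0.14 (adjusted p = 1.45e-05) in Ppara-flox and -1.19 ± 0.14 (adjusted p = 3.7e-06) in PPARα-deficient hearts. Adamts10 changed by -1.75 ± 0.15 and -1.56 ± 0.15, and Adamts15 by 1.25 ± 0.21 and 0.68 ± 0.20, both called in each genotype. Adamts8 rose by 1.75 ± 0.53 and 2.78 ± 0.55. Of the 6 ADAMTS-like proteins, which lack the protease domain, 1 rose and 4 fell in each genotype. Papln showed the largest change of that list, from 18.4 ± 4.50 to 0.93 ± 0.61 CPM in Ppara-flox hearts (-4.29 ± 0.41, adjusted p = 4.46e-07), with -4.85 ± 0.42 in PPARα-deficient hearts. Adamtsl3 changed by -1.66 ± 0.23 and -1.90 ± 0.23, Adamtsl2 by -1.29 ± 0.24 and -0.95 ± 0.23, and Adamtsl4 by 0.53 ± 0.12 and 0.65 ± 0.12.

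Adamtsl5 was the 1 gene of these lists called between genotypes: under LPS it stood at 61.4 to 71.4 CPM in Ppara-flox and at 81.6 to 93.2 in PPARα-deficient hearts (log2 difference 0.38 ± 0.08, adjusted p = 0.0281). The 6 lists held 14, 13, 6, 8, 13 and 6 tested genes, and 1.23% of all genes were called in that comparison. A single call in lists of this size is close to that share. Of the 8 membrane-anchored ADAM proteases, 4 rose and 3 fell in Ppara-flox hearts and 4 rose and 2 fell in PPARα-deficient hearts. Adam19 changed by -2.45 ± 0.18 (adjusted p = 3.54e-08), Adam9 by 0.94 ± 0.11 (adjusted p = 5.31e-06) and Adam33 by -1.94 ± 0.39 (adjusted p = 0.000816) in Ppara-flox hearts. In PPARα-deficient hearts Adam19 changed by -2.85 ± 0.18, Adam9 by 1.02 ± 0.11 and Adam8 by 1.88 ± 0.30, whereas Adam33 was at -0.94 ± 0.38 (adjusted p = 0.0609).

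Among 13 genes that activate, clear or otherwise inhibit matrix proteases, 4 rose and 4 fell in each genotype. Plaur, the urokinase receptor, rose from 3.08 ± 0.57 to 40.9 ± 3.43 CPM in Ppara-flox hearts (3.73 ± 0.16, adjusted p = 1.59e-10) and by 3.48 ± 0.16 in PPARα-deficient hearts. Plat, the tissue plasminogen activator gene, rose by 1.51 ± 0.13 and 1.46 ± 0.13, and Serpine2, an inhibitor of such serine proteases, by 1.16 ± 0.12 and 1.28 ± 0.12. Thbs2, whose product binds MMP2 for uptake by cells, changed by -2.24 ± 0.20 and -2.09 ± 0.20. Of 10 proteoglycan and hyaluronan genes listed, 6 were tested, and 2 rose and 2 fell in Ppara-flox hearts. Vcan, the versican substrate of the 3 ADAMTS proteases, was at 10.4 to 14.8 CPM under PBS and 26.9 to 36.4 under LPS in Ppara-flox hearts. It rose by 1.25 ± 0.14 there (adjusted p = 3.62e-06) and by 1.22 ± 0.14 in PPARα-deficient hearts. Cd44, the hyaluronan receptor, rose by 1.09 ± 0.24 and 1.33 ± 0.24, and Has3, a hyaluronan synthase, changed by -2.55 ± 0.46 and -1.99 ± 0.46.

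**Figure D5:**
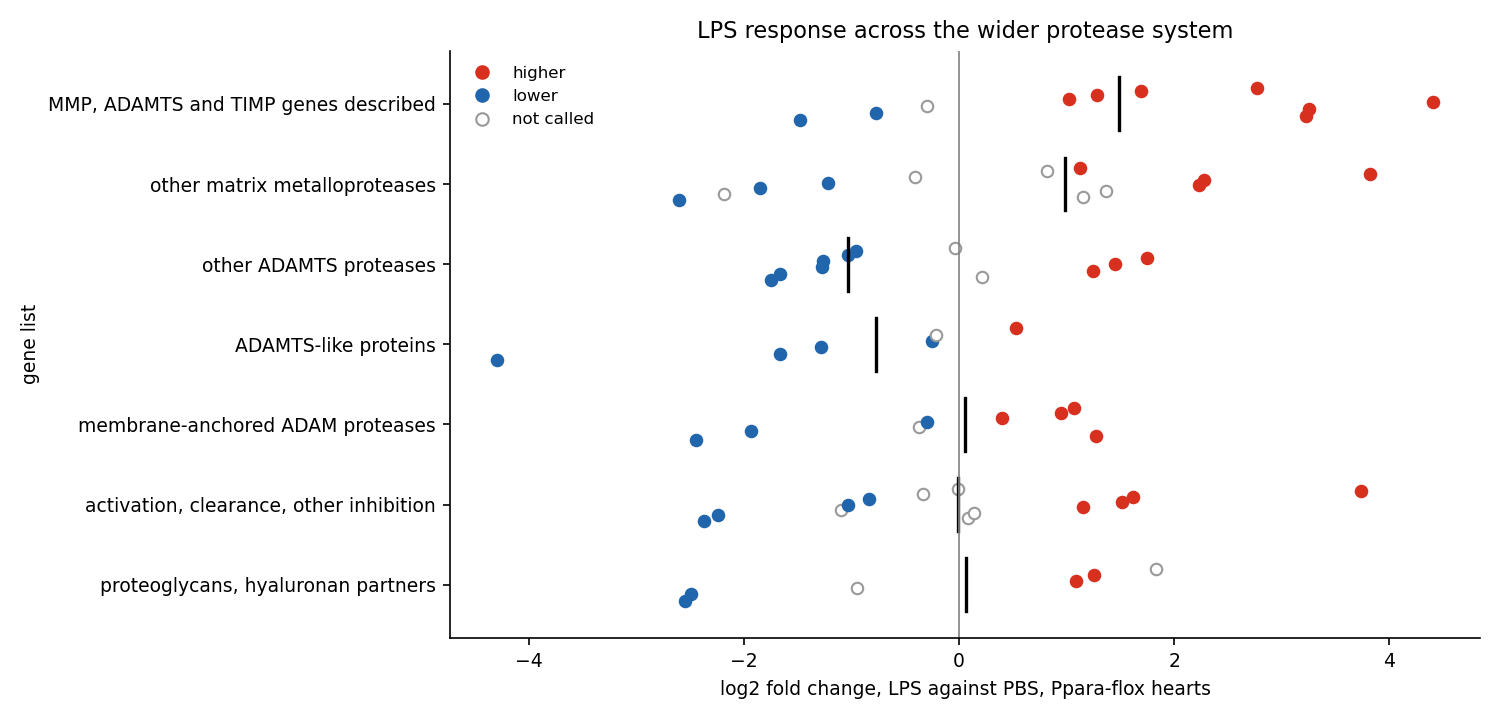
Log2 fold change with LPS in Ppara-flox hearts (horizontal axis) for the 10 genes described and 6 further gene lists (vertical axis), with 1 point per gene and a bar at each list's median, genes near 0 set at their bound. Red points were called higher, blue lower, open points were not called, and 4 genes with at most 12 estimated counts in every library of a group (Mmp24, Mmp27, Adamts19, Adamts20) are left out of the points. The median is 1.49 for the 10 genes and -1.03 for the other ADAMTS proteases.

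The genes whose pattern over the 16 libraries was most like that of Timp1, the gene with the highest LPS response, were Inhbb, Syt12, Rnd1 and Pgf. Likeness was the root mean square difference of log2 CPM after each gene was centred on its own mean, among 10559 genes with a mean log2 CPM of at least 2, and it was 0.27, 0.38, 0.43 and 0.48 for these genes. The nearest of the other 9 genes described was Adamts4 at 0.80. For Timp2, the gene with the lowest response, the closest were Rassf3 (0.11), Lynx1 (0.11), Cyfip2 (0.12) and Map7d1 (0.12), and the nearest of the other 9 was Mmp2 at 0.49. Both Timp1 and Timp2 had at least 4 genes outside the set closer to them than any gene in it. With 10559 genes compared and only 9 others in the set, this is a description and no test of the set.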

How the data were processed

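The 16 heart libraries were grouped by the genotype and treatment in the labels. The authors deposited 1 table per sample of estimated counts (expected counts) per gene symbol, whole numbers not scaled between samples. Per the labels' protocols the library kit was stranded. Per the submitters' processing notes the build was GRCm38 and the tools were DESeq2 1.30.1, StringTie 1.3.3b, HISAT and fastp 0.23.2. The counting tool, its annotation and its strand setting are not given in the sources used here. If counting ignored strand, reads where a gene overlaps another on the opposite strand cannot be told apart. One overlapping result is not reported here.

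Of 55421 table lines, 27 with symbols turned into dates were left out (0.0644% to 0.0861% of counts) and 116 repeated lines were summed. The value 4 occurred 12828 times, against 5290 for 3 and 7264 for 5, and all 10 multiples of 4 up to 40 exceeded both neighbours. A read pair may thus count as about 4, which limits precision to the totals divided by 4. Genes kept by filterByExpr (18713) were scaled by TMM, and glmQLFit estimated 4 group means from 16 libraries (12 residual degrees of freedom). Tests were glmQLFTest with Benjamini-Hochberg adjustment over all genes at 0.05 (R 4.3.3, edgeR 4.0.16). SE is the log2 fold change divided by the root of F, and intervals are 95% t intervals. CPM uses TMM-scaled library sizes. Alternatives included DESeq2 1.42.0, limma 3.58.1 (voom), other scalings and filters, counts divided by 4, a replicate block and leaving out each library. The edgeR script was tested on simulated counts. Coordinates and exon lengths are from GENCODE vM21 (GRCm38), which held 53543 of the symbols, and promoters from RefSeq. Tables and figures used Python 3.11.15 with pandas 2.3.3 and matplotlib 3.10.9.

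The 10 genes, the gene lists and the tests were chosen with earlier results of these data known. Besides the 10 genes, the text names up to 3 genes of each list with the smallest adjusted p called for LPS in each genotype, those called between genotypes or for the interaction, 4 genes most like the highest and lowest responder, and genes that a result turns on. A comparison of the TIMP proteins is not analysed here.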

Additional observations from a re-analysis of the deposited data

Results flagged for a closer look

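Each of the 10 genes was examined in each of the 4 groups of 4 libraries, 40 groups in all, for a highest or lowest library that stood far from the other 3 relative to the range of the group. Chance alone picks out about 1 in 20 groups, and 2 of the 40 were picked out. Adamts4 in PPARα-deficient hearts under PBS stood at 19.7 CPM in replicate 4, and the gap to the nearest library was 0.904 of the range of the group. The same library had the highest PBS values of Timp1 (3.07 CPM), Adamts1 (61.7 CPM) and Mmp14 (23.9 CPM), and of the summed neutrophil markers (8.27 CPM). Its summed cardiomyocyte (49915 CPM) and fibroblast markers (1683 CPM) were the lowest among the PBS libraries. Its mitochondrial share of counts (29.8%) was the highest of all libraries. Mmp14 in Ppara-flox hearts under PBS stood at 22.5 CPM in replicate 2, with a gap of 0.905 of a range that itself spanned only 19.7 to 22.5 CPM.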

How the results depend on the processing

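Across 560 alternatives to the 20 LPS results of single genes, every one kept its direction and, except for 2, its side of the threshold. Those at an adjusted p under 0.01 used the main fit with another threshold, so their direction could not change. Both exceptions were Timp4 in Ppara-flox hearts, which passed with upper-quartile scaling (-0.36) and without replicate 3 of the LPS Ppara-flox group (-0.41). The 7 genes called higher stayed 7 in both genotypes under each alternative, the genes called lower ranged from 2 to 3 in Ppara-flox hearts and stayed 1 in PPARα-deficient hearts, and between genotypes and for the interaction 0 were called throughout. Over all leave-one-out fits the Mmp2 response in Ppara-flox hearts ran from -0.96 to -0.63 and the Adamts4 response in PPARα-deficient hearts from 2.49 to 3.20. With a replicate block, 7 genes were higher and 2 lower in Ppara-flox hearts, 7 higher and 1 lower in PPARα-deficient hearts, and 0 were called between genotypes or for the interaction. Deviations of same-numbered libraries correlated at -0.20 to 0.16 (24 pairs, 10559 genes), against -0.25 to 0.43 for 72 other pairs. These ranges showed no pairing by replicate number but cannot exclude it. In both PBS groups, replicates 1 and 2 had header numbers from 957 to 971, and replicates 3 and 4 from 1069 to 1075.

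Counts over all genes moved more. Between genotypes under PBS, edgeR called 6 higher and 75 lower, and DESeq2 48 and 135. Under LPS edgeR called 72 and 159, DESeq2 200 and 244, edgeR at an adjusted p under 0.01 18 and 108, and a fit of only the 8 libraries compared 25 and 116. For the interaction edgeR called 0 of 18713 (1075 with an unadjusted p under 0.05), DESeq2 26 and 29, limma-voom 0, and edgeR 3 and 1 with a filter of 1 CPM in 8 libraries or with counts divided by 4, while leaving out single libraries gave 0 to 4. TIMP shares per longest transcript were, for Timp1, Timp2, Timp3 and Timp4, 2.18%, 28.4%, 54.7% and 14.8% under PBS and 25.8%, 5.71%, 61.7% and 6.77% under LPS in Ppara-flox hearts. In PPARα-deficient hearts they were 2.39%, 27.8%, 54.7% and 15.1% under PBS and 29.4%, 6.23%, 57.4% and 7.04% under LPS.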
